A study of Mus musculus with 17 samples.

Results

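Notch1, Notch2, Dll1, Dll4, Jag1, Hes1, Hes6, Atoh1, Mfng and Lfng, 10 genes of the Notch pathway, were followed through the differentiation of mouse small intestinal organoids in single-cell RNA-seq data. They were taken by symbol from the count table of each library, in the cells that the deposited merged table names, and all 10 were found among the 24536 genes with at least 1 unique molecular identifier (UMI, a tag that marks 1 captured RNA molecule) in those cells. Organoids were grown from crypts of male and female wild-type C57BL/6 mice, between 1 and 6 months old, and the library groups differed in medium, inhibitor and time. Day 0 organoids (2 libraries) came from ENR+CV, which holds EGF, Noggin and R-spondin 1 (ENR) with the GSK3 inhibitor CHIR99021 and valproic acid, and which enriches for stem cells. Control organoids (7 libraries) were moved to ENR+CD, in which DAPT, an inhibitor of gamma-secretase, takes the place of valproic acid, and were sampled at days 0.25, 1, 2, 3, 4 and 6. Treated organoids (8 libraries) received 160 nM KPT-330, an inhibitor of the nuclear exporter XPO1, in ENR+CD for the same times. Since valproic acid left the medium when DAPT entered it, the parts of these agents in any difference from day 0 cannot be told apart, and CHIR99021 was present throughout.

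Notch signalling passes between touching cells. A ligand of the Delta-like or Jagged family on 1 cell binds a Notch receptor on its neighbour, gamma-secretase then cuts the receptor, and the freed intracellular domain joins RBPJ and Mastermind proteins in the nucleus to switch on target genes. In the intestinal crypt the target Hes1 represses Atoh1, the factor required for the secretory lineages (Paneth, goblet and enteroendocrine cells), while Atoh1-positive cells present Dll1 and Dll4 to their neighbours. Fringe enzymes, among them Mfng and Lfng, add sugars to the receptors and so change which ligands they answer to.

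Promoter windows are shown for Lfng and Atoh1, because the first holds the letters of an RBPJ motif and the second repeats the letters of a motif bound by HES proteins, and both genes moved after the medium change. RefSeq promoter windows of 300 bases (build GRCm38.p6, the assembly also called mm10) were at hand for 8 of the 10 genes, in 10 windows. Hes1 and Mfng had no window and were not searched. The RBPJ motif CGTGGGAA, searched on both strands, was found in 0.734% of all 32851 windows. Among the 8 genes with a window it was in Lfng alone, where it includes the shorter form TGGGAA that 25.6% of windows hold. The letters CACGCG, also searched on both strands, were in 9.27% of windows and in those of Atoh1, Dll1, Dll4, Jag1, Lfng and Notch2. The stretch upstream of Lfng at chr5:140607091-140607319 and the one upstream of Atoh1 at chr6:64728875-64729124 are both on the plus strand, with the single CGTGGGAA of Lfng and the 3 upstream matches to CACGCG or its reverse complement in Atoh1 in capitals.
Lfng: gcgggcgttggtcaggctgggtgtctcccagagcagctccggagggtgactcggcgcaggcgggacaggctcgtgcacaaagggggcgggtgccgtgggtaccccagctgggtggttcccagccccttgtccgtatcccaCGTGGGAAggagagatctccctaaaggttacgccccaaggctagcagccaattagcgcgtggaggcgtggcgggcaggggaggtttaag
Atoh1: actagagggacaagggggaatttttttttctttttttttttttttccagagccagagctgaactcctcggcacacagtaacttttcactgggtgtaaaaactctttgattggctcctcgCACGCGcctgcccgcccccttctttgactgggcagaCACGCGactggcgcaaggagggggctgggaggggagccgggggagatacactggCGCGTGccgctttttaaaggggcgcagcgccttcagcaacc
A match of letters is a description of the sequence and does not show that a factor binds there.

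In GENCODE coordinates of the same assembly, the receptor genes Notch1 (chromosome 2, 26457903 to 26516663, minus strand) and Notch2 (chromosome 3, 98013527 to 98150361, plus strand) and the ligand genes Dll1 (chromosome 17, 15367354 to 15376872, minus strand), Dll4 (chromosome 2, 119325784 to 119335962, plus strand) and Jag1 (chromosome 2, 137081456 to 137116644, minus strand) are protein-coding. So are the transcription factor genes Hes1 (chromosome 16, 30064384 to 30067796, plus strand), Hes6 (chromosome 1, 91411483 to 91414038, minus strand) and Atoh1 (chromosome 6, 64729125 to 64731245, plus strand) and the Fringe genes Mfng (chromosome 15, 78755882 to 78773475, minus strand) and Lfng (chromosome 5, 140607320 to 140615545, plus strand). The counts are totals per gene symbol, so exons, introns and UTRs were not separated.

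The 17 libraries held 531 to 1547 kept cells and 3458887 to 12433109 UMIs each, with a median of 2676 to 8463 UMIs per cell. Each library came from 1 sample of pooled organoids, 4 of the 13 combinations of medium and day had 2 libraries, and nothing states that libraries of the same combination came from separate animals, so p-values measure only the spread between these libraries. Epithelial genes (5 of 5 detected) were high in every library at 3117 to 4999 CPM (UMIs per 1000000 after TMM normalisation in edgeR, factors 0.707 to 1.20), while the mesenchymal, endothelial and tuft cell lists (5, 3 and 5 genes, all detected in at least 1 library) stayed at or below 4.82 in every library. The immune list (5 genes, among them Lyz2, whose reads can be shared with the Paneth gene Lyz1) stood at 3.11 and 3.80 at day 0, at 3.79 to 28.2 in controls and at 3.29 to 79.9 with KPT-330, and its part in the results was not tested. The 2 day 0 libraries differed in their median share of mitochondrial UMIs, at 18.3% in replicate 1 and 10.9% in replicate 2. The day 6 KPT-330 libraries differed more, at 16.5% in replicate 1 and 6.31% in replicate 2, with TMM factors of 0.707 and 0.881. All values for whole libraries are on this scale, summed over the kept cells. In such sums, fewer cells of a type and less RNA per cell cannot be told apart. Days 0.25 and 1 had only libraries numbered replicate 1, and days 2 and 4 and the day 3 control only replicate 2. Changes between day 1 and day 2 thus cannot be told apart from differences between these numbers, whose meaning is not stated. Day 0 replicate 1 and the libraries of days 0.25 and 1 listed 19823 to 21652 genes, and all others 15576 to 17849.

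After the change to ENR+CD the ligands Dll1 and Dll4, Atoh1 and both Fringe genes rose, and Hes1, Jag1 and Notch2 fell. In the mean over the 6 control days against day 0, 8 of the 10 genes passed the test (adjusted p below 0.05 in edgeR's quasi-likelihood test with Benjamini-Hochberg adjustment over 13455 genes), 5 of them higher and 3 lower, while 33.4% of all genes tested passed (14.5% higher and 18.9% lower). The median log2 fold change was 0.71 for the 10 genes and -0.01 for all genes.

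**Figure D1:**
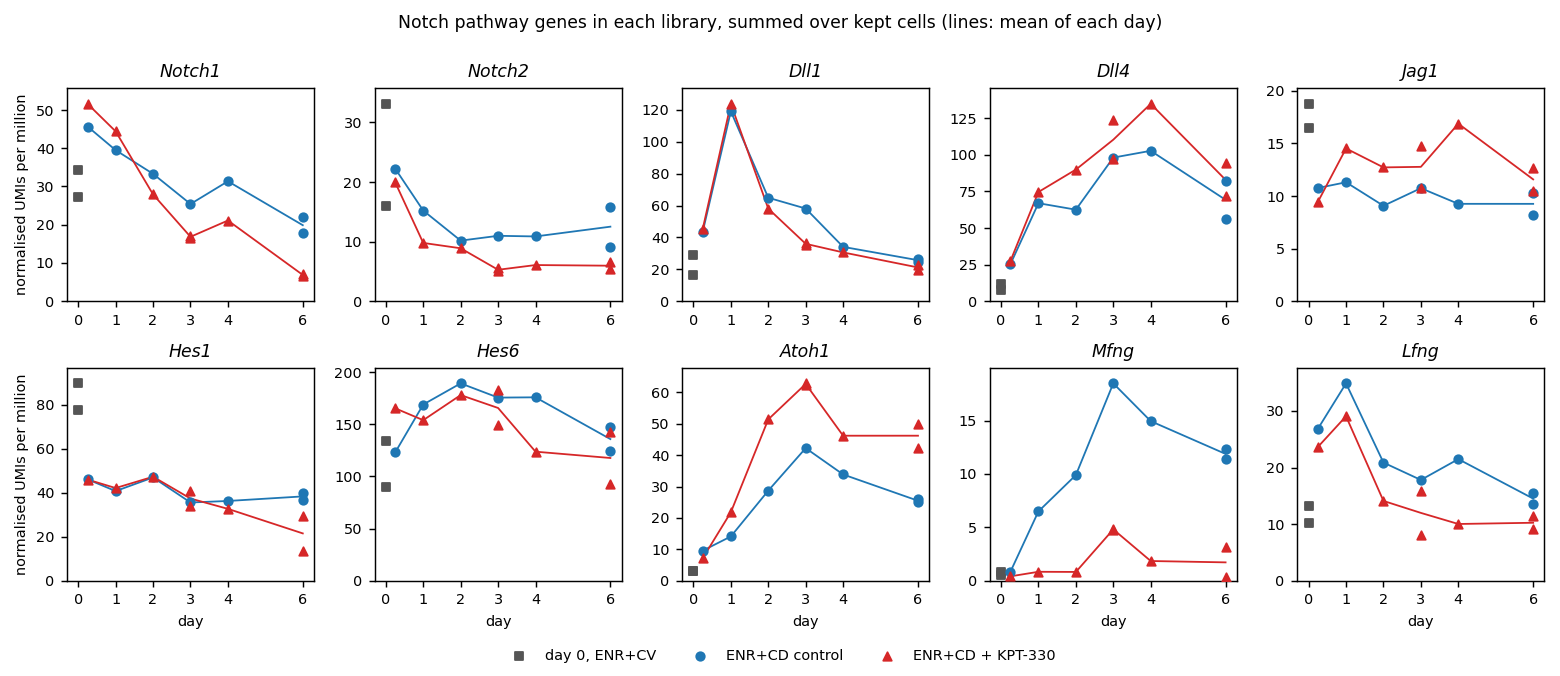
Level of each Notch pathway gene (vertical axis, CPM, UMIs per 1000000 after normalisation) against day (horizontal axis), 1 point per library, with lines through the mean of each day for ENR+CD controls (circles) and KPT-330 (triangles) and squares for the 2 day 0 libraries. Hes1 and Jag1 of all 7 control libraries sit below both day 0 libraries, Atoh1 and Dll4 of all 7 sit above them, and Mfng stays between 0.317 and 4.87 with KPT-330 while controls reach 18.5.

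Hes1, the transcriptional repressor that is the classical Notch target of the crypt, measured 77.6 and 89.8 CPM at day 0. Control libraries ranged from 35.6 to 47.0 with a median of 40.0, so none of the 7 overlapped day 0, and the level was already 46.2 at day 0.25. The log2 fold change was -1.05 ± 0.19 (SE; adjusted p = 0.0017), and the individual days passed the test at days 3, 4 and 6. Its relative Hes6, which opposes Hes1 in other tissues, measured 89.8 and 134 at day 0 and 123 to 189 in controls, an overlapping range with a difference of 0.50 ± 0.20 that did not pass (adjusted p = 0.070). It passed in 5 of 15 alternative fits, among them the one with a replicate block (0.50, adjusted p = 0.045) and the one without day 0 replicate 2 (0.82, adjusted p = 0.040), and was 0.23 without day 0 replicate 1 (adjusted p = 0.51).

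Atoh1 had the largest fold change of the 3 transcription factors. It measured 2.95 and 3.11 at day 0 (14 and 27 UMIs), 9.59 at day 0.25, 14.1 at day 1, 28.7 at day 2, 42.2 at day 3, 33.8 at day 4, and 26.0 and 24.9 at day 6. Every control library lay above both day 0 libraries, and the highest level was at day 3. The log2 fold change over all days was 2.90 ± 0.20 (adjusted p = 3.3e-06 in edgeR). Atoh1 was also the single gene of the 10 to pass at day 0.25 alone, with 1.65 ± 0.27 (adjusted p = 0.034), on a day when 0.364% of all genes passed. With library totals in place of TMM factors, this day's difference was 1.54 and did not pass (adjusted p = 0.075).

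The Delta-like ligands followed different courses. Dll1 measured 28.9 and 16.4 at day 0, 43.7 at day 0.25 and 119 at day 1, then 64.9, 58.1 and 34.1 at days 2, 3 and 4, and 24.8 and 26.6 at day 6. The day 6 libraries thus lay within the range of day 0 again, and the difference from day 0 passed at days 1, 2 and 3, largest at day 1 with 2.43 ± 0.26 (adjusted p = 0.0005, where 1.84% of all genes passed). Dll4 measured 12.02 and 7.37 at day 0, and rose to 67.0 at day 1 and 103 at day 4, with 56.2 and 82.3 at day 6. All 7 controls exceeded both day 0 libraries in Dll4, and the difference over all days was 2.78 ± 0.26 (adjusted p = 2.8e-05), passing at every day from day 1 on. Of all genes 20.6%, 30.2%, 31.0% and 40.0% passed at days 2, 3, 4 and 6.

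Jag1, a ligand of the other family, went the opposite way. It measured 18.8 and 16.5 at day 0 and 8.23 to 11.3 in the controls, with no overlap, and fell by 0.80 ± 0.20 on the log2 scale (adjusted p = 0.0091). Day by day the fall passed at days 4 and 6. Without day 0 replicate 1 the difference over all days was -0.73 and did not pass (adjusted p = 0.072), nor did it in DESeq2 at -0.81 (adjusted p = 0.061) or in a fit of the 2 groups without days at -0.82 (adjusted p = 0.055).

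Of the receptors, Notch1 did not pass in the mean of the control days, with 0.02 ± 0.16 (adjusted p = 0.96), a sign that turned in 4 of 15 alternative fits. Its control libraries ran from 45.7 at day 0.25 to 17.8 and 21.96 at day 6, against 27.2 and 34.3 at day 0. Of the single days only day 6 passed, with -0.65 ± 0.20 (adjusted p = 0.019). Of the 7 control libraries, 3 lay below both day 0 libraries and 2 above both. Notch2 measured 33.1 and 16.0 at day 0, a wide gap between replicates, and 9.18 to 22.2 in controls, of which 6 of 7 lay below both. It fell by 0.88 ± 0.27 (adjusted p = 0.026), and without day 0 replicate 1 it no longer passed, at -0.31 (adjusted p = 0.48). It also missed in DESeq2 at -0.90 (adjusted p = 0.068) and in the fit of the 2 groups at -0.86 (adjusted p = 0.16).

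Among the Fringe genes, Mfng was near the limit of detection at day 0, with 4 and 5 UMIs, or 0.844 and 0.576 CPM (95% exact Poisson intervals 0.230 to 2.16 and 0.187 to 1.34, counting error only). It measured 0.828 at day 0.25, 6.49 at day 1, 9.89 at day 2, 18.5 at day 3, 14.9 at day 4, and 12.3 and 11.4 at day 6. The log2 fold change over the control days was 3.43 ± 0.52 (adjusted p = 0.00044), and each day from day 1 passed. Lfng measured 13.3 and 10.2 at day 0 and 13.5 to 34.9 in controls, all above both day 0 libraries, with its highest level at day 1. It rose by 0.91 ± 0.25 (adjusted p = 0.014), while among single days only day 1 passed, with 1.58 ± 0.34 (adjusted p = 0.037). Without day 0 replicate 1 or 2 the difference over all days was 1.07 or 0.71, and neither passed (adjusted p = 0.0504 and 0.18).

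**Figure D2:**
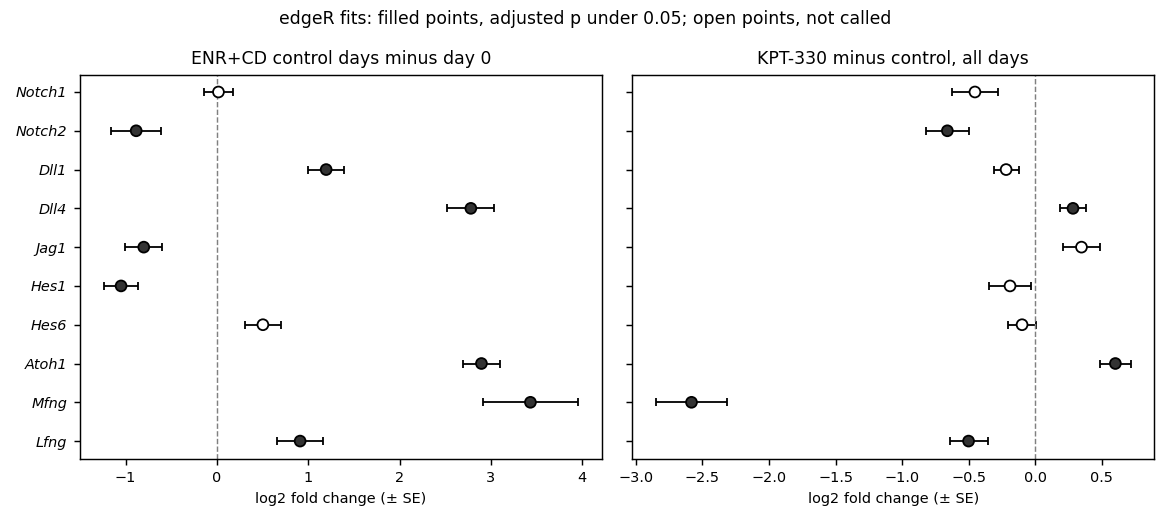
Log2 fold change with its SE (horizontal axis) for each of the 10 genes (vertical axis), on the left for the mean of the ENR+CD control days minus day 0 and on the right for KPT-330 minus control with a term for day. Filled points passed an adjusted p of 0.05, 8 genes on the left and 5 on the right, and Mfng is the gene with opposite signs of over 2 on both sides.

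The other genes of the pathway were read from a list of 65, of which 59 could be tested against day 0. In all, 16 rose and 7 fell, while 14.5% of all genes tested were higher and 18.9% lower. The median log2 fold change was 0.25 against -0.01 for all genes. Hes3, Hes5, Hey1, Hey2, Heyl and Dtx1 were too low to test. The 6 factors listed as downstream of Atoh1 or repressed by Hes1 all rose (adjusted p between 1.3e-06 and 0.027 in edgeR). Bhlha15, a secretory cell maturation factor, rose by 3.24 ± 0.19, and Spdef, a goblet and Paneth factor, by 2.67 ± 0.20. The endocrine factors Insm1 and Neurog3 rose by 2.77 ± 0.34 and 2.67 ± 0.22, and Gfi1 by 2.11 ± 0.33. Ascl2 rose by 1.11 ± 0.34 and is a stem cell factor, whose place in this list was not tested.

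The 4 other target genes that could be tested split. Nrarp, a feedback inhibitor of Notch, measured 16.7 and 18.5 at day 0 and 1.23 to 5.09 in controls, and fell by 3.01 ± 0.24 (adjusted p = 6.2e-06). Olfm4, a stem cell gene that depends on Notch, measured 39.9 and 54.1 at day 0 and 1.06 to 21.5 in controls, and fell by 3.19 ± 0.22 (adjusted p = 4.6e-06). Neither overlapped day 0 in any control library. Hes7 instead rose by 2.28 ± 0.48 (adjusted p = 0.0032), from below 1 CPM at day 0 to at most 8.02, and Hes2 at 0.28 ± 0.58 did not pass (adjusted p = 0.75).

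Receptors and ligands outside the 10 genes moved both ways. Notch3 fell by 3.05 ± 0.65, from 1.497 and 2.32 CPM at day 0 to at most 0.556, and Jag2 fell by 1.10 ± 0.32, while the noncanonical ligand Dner rose by 1.61 ± 0.43 (adjusted p = 0.0043, 0.018 and 0.012 in edgeR). Notch4 at 1.05 ± 0.43 and Dll3 at 0.98 ± 0.60 did not pass (adjusted p = 0.075 and 0.24). Among the genes listed for glycosylation and ligand endocytosis, Pofut2, which adds fucose to some proteins, rose by 0.45 ± 0.13. The ubiquitin ligase Mib1 rose by 0.69 ± 0.14, and another such ligase, Neurl1b, fell by 0.97 ± 0.23. Rfng, Pofut1, Poglut1, Mib2 and Neurl1a did not pass.

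Of the cleavage genes, which encode the proteases and the gamma-secretase complex that DAPT inhibits, Ncstn rose by 0.72 ± 0.15 and Aph1c fell by 1.91 ± 0.51, while Furin, Adam10, Adam17, Aph1a, Aph1b, Psen2 and Psenen did not pass. In the nuclear complex, Maml1 rose by 0.96 ± 0.19, Crebbp by 0.74 ± 0.14 and Ep300 by 0.50 ± 0.13, all coactivators, and Rbpj at 0.38 ± 0.21 did not pass (adjusted p = 0.19). Among the corepressors, Tle1 rose by 0.57 ± 0.15 and Hdac1 fell by 0.95 ± 0.17, and among the regulators of turnover the ubiquitin ligase Itch rose by 0.59 ± 0.15. The adjusted p of these genes and of Pofut2, Mib1 and Neurl1b lay between 0.0014 and 0.019.

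With KPT-330, Atoh1 and Dll4 were higher and Mfng, Notch2 and Lfng lower than in control organoids of the same day. In the fit over all 15 ENR+CD libraries with a term for day, these 5 of the 10 genes passed (2 higher and 3 lower), against 26.9% of all 13303 genes (13.5% higher and 13.4% lower). The median log2 fold change was -0.20 for the 10 genes and 0.00 for all. This split depends on the scaling. KPT-330 libraries hold more Paneth RNA (10 Paneth markers took 21.1% and 22.1% of UMIs at day 6, against 14.1% and 14.4% in controls), and with library totals in place of TMM factors the median of all genes was -0.27, with 452 genes higher and 4906 lower instead of 1797 and 1779. With library totals 1 of the 10 genes was higher and 6 were lower, now including Notch1 at -0.73 and Hes1 at -0.47 (adjusted p = 0.021 and 0.034 in edgeR) as well as Dll1. The control libraries are the same as those set against day 0 above.

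Mfng, 1 of the 2 Fringe genes that rose in ENR+CD, was lower with KPT-330 on all 6 days. It measured 0.411, 0.838 and 0.824 CPM at days 0.25, 1 and 2 (2, 3 and 9 UMIs), 4.75 and 4.87 at day 3, 1.85 at day 4, and 0.317 and 3.12 at day 6 (1 and 11 UMIs). From day 1 on, each KPT-330 library lay below every control library of its day, and all 8 lay below the 6 controls from day 1 on. The log2 fold change was -2.58 ± 0.27 (adjusted p = 3.7e-05), and it passed in all 18 alternative fits. At day 6 alone it was -2.73 ± 0.53 (adjusted p = 0.035, where 1.56% of all genes passed).

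Atoh1 was higher with KPT-330 on 5 of 6 days. At day 0.25 it measured 7.20 against 9.59 in control, and then 21.8 against 14.1 at day 1, 51.4 against 28.7 at day 2, 62.5 and 62.8 against 42.2 at day 3, 46.2 against 33.8 at day 4, and 50.05 and 42.3 against 26.0 and 24.9 at day 6. From day 1 on the 2 conditions did not overlap on any day. The log2 fold change over all days was 0.60 ± 0.11 (adjusted p = 0.0021), and with library totals 0.31 (adjusted p = 0.0385). At day 6 it was 0.85 ± 0.18 (adjusted p = 0.038), which did not pass with library totals, at 0.45 (adjusted p = 0.225). The Paneth-like and early Paneth-like classes described below, which had high Atoh1 levels, made up 62.4% and 5.36% of cells in KPT-330 replicate 1 of day 6 and 53.0% and 9.79% in replicate 2, against 44.8% and 5.45% and 38.6% and 5.199% in the controls, and the part of this difference in the Atoh1 result was not tested in these sums.

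The ligand Dll4 was higher with KPT-330 on each of the 6 days after TMM normalisation, with 27.3 to 135 CPM (median 92.1) against 25.2 to 103 in controls (median 67.0). The ranges overlap across days, the difference was 0.28 ± 0.10 (adjusted p = 0.040), and it passed in 7 of 18 alternative fits. It missed without any 1 of the 6 days (0.23 to 0.32) and without day 3 KPT-330 replicate 2, day 6 control replicate 1 or day 6 KPT-330 replicate 2 (0.26, 0.23 and 0.25, adjusted p at most 0.078). With library totals it was 0.01 (adjusted p = 0.95). Dll1 did not pass at -0.22 ± 0.09 (adjusted p = 0.095), nor did Jag1 at 0.35 ± 0.14 (adjusted p = 0.071). With library totals Dll1 passed, at -0.48 (adjusted p = 0.0076), and Jag1 did not, at 0.08.

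The receptor Notch2 was lower with KPT-330 on all 6 days, with 19.9 against 22.2 at day 0.25, 9.78 against 15.2 at day 1, 8.88 against 10.2 at day 2, 5.002 and 5.54 against 11.0 at day 3, 6.07 against 10.9 at day 4, and 5.39 and 6.53 against 9.18 and 15.8 at day 6. It fell by 0.66 ± 0.16 on the log2 scale (adjusted p = 0.0081), and passed in 17 of 18 alternative fits, missing at 0.051 without day 3. Lfng was likewise lower on all 6 days, by 0.50 ± 0.14 (adjusted p = 0.018), with 8.06 to 29.1 against 13.5 to 34.9. Without day 4 or without day 6 Lfng did not pass, at -0.43 and -0.52 (adjusted p = 0.058 and 0.057).

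Notch1 with KPT-330 lay above its controls early and below them later, a change that did not pass its own test. It measured 51.6 and 44.4 at days 0.25 and 1, against 45.7 and 39.5 in control, but 27.9 against 33.3 at day 2, 16.5 and 17.1 against 25.4 at day 3, 21.1 against 31.4 at day 4, and 6.65 and 7.10 against 17.8 and 21.96 at day 6. Over all days the difference was -0.45 ± 0.18 and did not pass (adjusted p = 0.071), though it did in 5 of 18 alternative fits, while at day 6 it was -1.51 ± 0.25 (adjusted p = 0.018). The test of the change itself, days 2 to 6 minus days 0.25 and 1, gave -0.91 ± 0.23 for Notch1, with an adjusted p of 0.40 in edgeR's quasi-likelihood test over 13455 genes. That contrast called 0 genes, with 1062 at an unadjusted p below 0.05. Its early days had only replicate 1 and days 2 and 4 only replicate 2, so time and replicate number are largely confounded in it.

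Hes1 at -0.19 ± 0.15 and Hes6 at -0.10 ± 0.11 did not pass over all days (adjusted p = 0.38 and 0.52). Hes1 with KPT-330 ran alongside the controls to day 4, between 32.7 and 47.3, and measured 29.5 and 13.6 at day 6 against 40.0 and 36.7. That day 6 difference of -0.85 ± 0.28 did not pass (adjusted p = 0.16), but did with library totals, at -1.28 (adjusted p = 0.016), and with no filter on low counts, at -0.86 (adjusted p = 0.0067). It rests on the KPT-330 libraries unequally, with -1.51 without replicate 1 (adjusted p = 0.026) and -0.39 without replicate 2 (adjusted p = 0.48). Of the 60 tests of the 10 genes by day, the 3 of Atoh1, Mfng and Notch1 at day 6 passed. At days 0.25, 1, 2, 3 and 4 none of the 10 passed. Of all genes 0.0446%, 0.0%, 0.0%, 1.11% and 0.0149% did in edgeR, with 309 and 728 genes at an unadjusted p below 0.05 on days 1 and 2. In simulated counts the day 1 contrast recovered 4.5% of true log2 changes of 1, so a miss on a single day does not show an unchanged gene. The day 6 calls rest on 2 libraries a side, and without either day 6 control library 0 of the 60 passed. Without KPT-330 replicate 1 of that day Notch1 was -1.48, Atoh1 0.71 and Mfng -1.94 (adjusted p = 0.063, 0.19 and 0.079), and without replicate 2 Notch1 was -1.56 and Atoh1 0.97 (adjusted p = 0.061 and 0.067). Mfng passed without replicate 2, at -5.16 (adjusted p = 0.016), a value that rests on the 1 UMI of replicate 1.

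In the wider list 57 genes were tested for KPT-330, of which 6 rose and 6 fell, while 13.5% of all genes tested were higher and 13.4% lower. The median was 0.01 against 0.00 for all genes, so the list as a whole did not stand out from all genes. Among those that rose, the ubiquitin ligase Neurl1b did so by 1.04 ± 0.19, Hes2 by 1.52 ± 0.36, the gamma-secretase subunit Psen2 by 0.31 ± 0.10, Spdef by 0.55 ± 0.09 and Bhlha15 by 0.41 ± 0.08. Neurog3, the factor that starts the endocrine lineage, fell by 1.61 ± 0.21, Ascl2 by 1.12 ± 0.18, Olfm4 by 1.01 ± 0.34, Dner by 0.98 ± 0.27, Dtx4, a ubiquitin ligase, by 0.48 ± 0.11 and the corepressor Hdac2 by 0.37 ± 0.09. Their adjusted p in edgeR lay between 0.00061 and 0.042. Neurog3 measured 23.4 to 98.9 CPM with KPT-330 (median 66.0) against 27.0 to 278 in controls (median 203). Nrarp at 0.39 ± 0.22 and Rbpj at -0.10 ± 0.12 did not pass.

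To place the genes in cells, the kept cells were clustered without the 10 genes and the wider list, and clusters were named from marker genes. The 13 clusters formed 9 classes: stem I-like, stem II-like (Cps1 and Clca4 among its leading genes), stem III-like (proliferation markers), early enterocyte-like, enterocyte-like, goblet-like (with the early secretory markers Rasa4 and Creb3l1 among its leading genes), early Paneth-like, Paneth-like and enteroendocrine-like. The last joins 2 clusters, of which the smaller has no marker of the fixed list among its leading 10 genes. Levels within a class are in CPM of that class (its UMIs per 1000000), without further normalisation, in libraries with at least 20 of its cells. They are descriptions with no test, over untreated libraries only, and libraries of different days enter different classes.

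**Figure D3:**
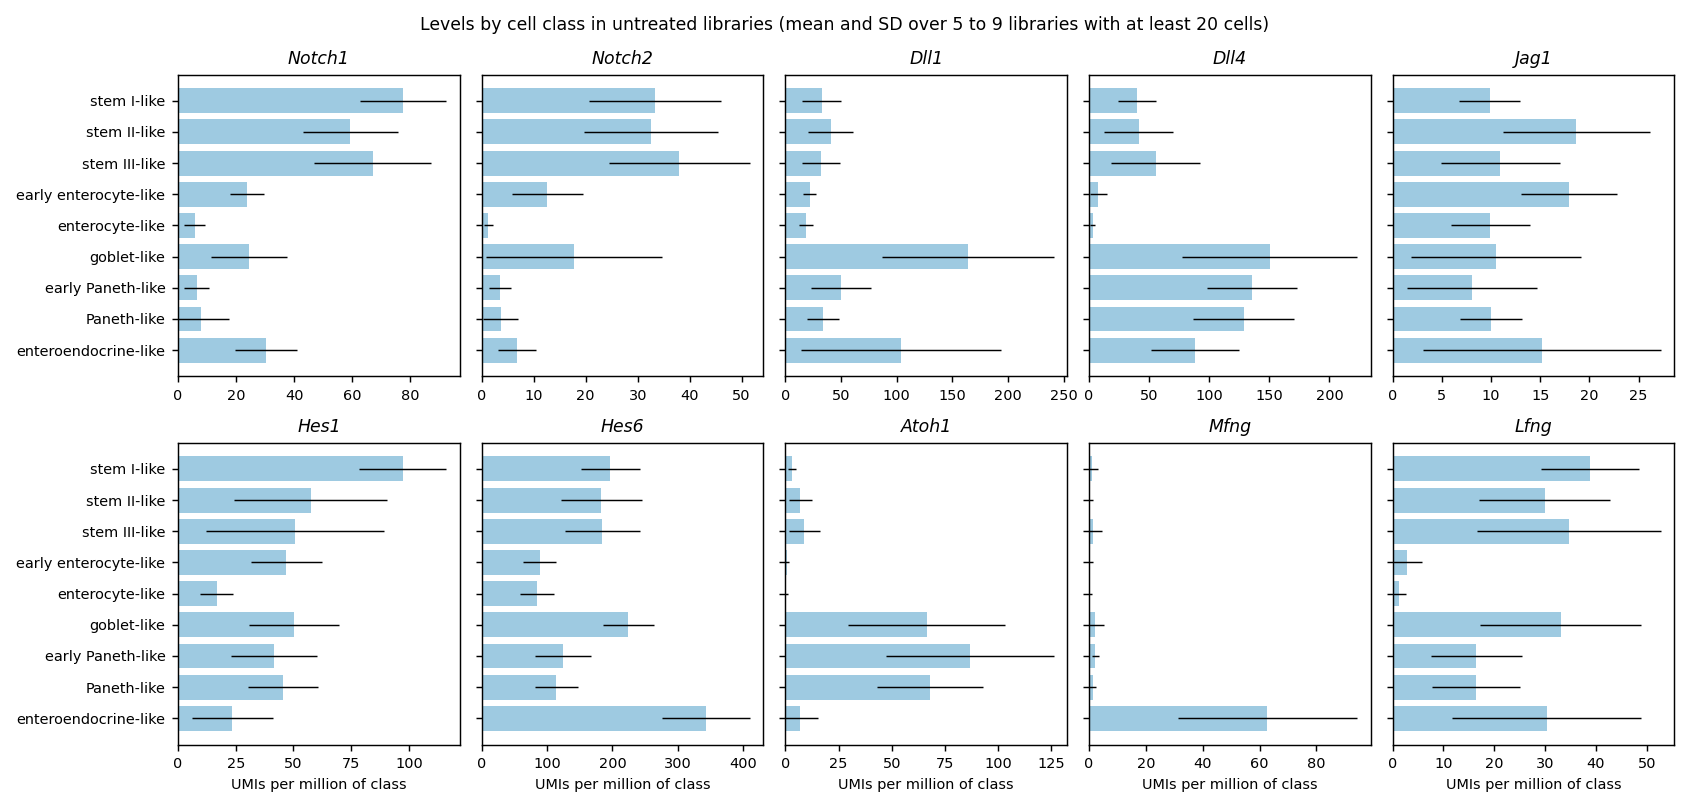
Level of each gene (horizontal axis, CPM of the class, bars for the mean and lines for the SD) in the 9 cell classes (vertical axis) over 5 to 9 untreated libraries per class. Mfng stands out in the enteroendocrine-like class at 62.7 against at most 2.22 elsewhere, Atoh1 in the goblet-like and both Paneth classes, and the receptors in the 3 stem classes.

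The receptors were highest in the stem classes. Notch1 measured 77.6 ± 15 (SD, n = 6) in stem I-like, 67.2 ± 20.1 (n = 9) in stem III-like and 59.4 ± 16 (n = 8) in stem II-like cells, values that overlap within their spread, then 30.4 ± 10.7 (n = 8) in enteroendocrine-like, 24.4 ± 13 (n = 9) in goblet-like and 23.8 ± 6.0 (n = 6) in early enterocyte-like cells. Paneth-like, early Paneth-like and enterocyte-like cells were lowest, at 7.96, 6.39 and 5.71. Notch2 kept the stem classes on top, at 38.0 ± 14, 33.4 ± 13 and 32.5 ± 13 in stem III-like, I-like and II-like cells.

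The Delta-like ligands peaked in secretory classes. Dll1 was highest in goblet-like cells at 164 ± 77 (n = 9) and in enteroendocrine-like cells at 104 ± 89.9 (n = 8), which do not differ beyond their spread, against 18.5 to 49.8 in the other 7 classes. Dll4 measured 150 ± 73 in goblet-like, 135 ± 37.1 in early Paneth-like and 129 ± 42 in Paneth-like cells, 88.2 ± 37 in enteroendocrine-like cells and 2.99 ± 2.3 in enterocyte-like cells. Jag1 varied little among classes, between 8.03 and 18.7.

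Among the transcription factors, Hes1 was highest in stem I-like cells at 97.3 ± 19 (n = 6) and lowest in enterocyte-like and enteroendocrine-like cells at 16.7 ± 7.2 and 23.4 ± 17.5. Atoh1 measured 86.6 ± 39 in early Paneth-like, 68.1 ± 25 in Paneth-like and 66.5 ± 37 in goblet-like cells, an order within the spread, and 0.315 to 8.92 in all 6 other classes, the enteroendocrine-like class among them at 6.999 ± 8.3. Hes6 was highest in enteroendocrine-like cells at 343 ± 67. Mfng was found in enteroendocrine-like cells at 62.7 ± 31.6 (n = 8), with both of their clusters at a like level. It measured 80.6 ± 20.5 (n = 6) in the cluster led by hormone granule genes and 71.7 ± 53 (n = 8) in the smaller cluster. The smaller cluster had Neurog3 and Insm1 among its leading 10 genes, but Neurog3 did not separate the clusters, at 1271 ± 268 and 1280 ± 422 in the same order. Lfng was spread over stem, goblet-like and enteroendocrine-like cells at 29.9 to 38.9.

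Within classes, the fall of Hes1 and the rise of Dll1 and Dll4 after the medium change were measured again in both stem classes present at day 0. In stem III-like cells 8 of 9 genes tested passed, 6 higher and 2 lower, against 15.8% of 9771 genes (6.1% higher and 9.68% lower). In stem II-like cells 5 of 8 passed, 4 higher and 1 lower, against 12.9% of 9789 (4.52% higher and 8.34% lower). These fits had 2 and 1 residual degrees of freedom, with most control days at 1 library, so their p-values lean on the spread shared across genes. Day 0 libraries held 41.8% to 45.0% stem II-like cells and 28.8% to 35.7% of the stem III-like class, which were at most 3.90% and 6.01% in each control library from day 2 on.

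Hes1 in stem III-like cells measured 86.1 and 136 at day 0 (154 and 406 UMIs), 49.7 at day 0.25 (197 UMIs in 452 cells), and 23.4, 34.0, 16.0 and 44.0 at days 1, 2, 3 and 4, with 45.9 and 20.8 at day 6. No control library reached the lower day 0 value, and the log2 fold change was -1.81 ± 0.22 (adjusted p = 1.5e-13). In stem II-like cells it was -1.51 ± 0.24 (adjusted p = 0.00018), from 94.5 and 109 at day 0 to 12.2 to 70.0 in 6 controls. The level at day 4 rests on 14 UMIs in the first class and on 2 in the second.

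Dll4 in stem III-like cells measured 7.27 and 4.37 at day 0, 30.3 at day 0.25 and 38.8 to 104 later, and rose by 3.52 ± 0.31 (adjusted p = 2.9e-26). Dll1 there measured 10.1 and 8.07 at day 0 and 24.96 to 62.4 in controls, and rose by 2.12 ± 0.31 (adjusted p = 1.4e-09). For both ligands the controls lay above day 0 without overlap. In stem II-like cells Dll4 rose by 3.14 ± 0.34 and Dll1 by 1.62 ± 0.31 (adjusted p = 1.5e-06 and 0.00090). Lfng rose by 1.47 ± 0.30 in the first class and by 1.82 ± 0.34 in the second, and Hes6 by 0.58 ± 0.19 and 0.78 ± 0.19 (adjusted p of all 4 at most 0.017). With library totals Hes6 in the second class was 0.81 and did not pass (adjusted p = 0.13).

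Notch1, which did not pass over whole libraries, rose in stem III-like cells, at 54.6 to 92.3 against 31.3 and 49.4 at day 0, with 0.81 ± 0.22 (adjusted p = 0.0044). In stem II-like cells it did not pass (0.68 ± 0.23, adjusted p = 0.054). Atoh1 in stem III-like cells rose by 2.71 ± 0.79 (adjusted p = 0.0078), from 2 and 4 UMIs at day 0, and Jag1 fell by 1.43 ± 0.42 (adjusted p = 0.0082). Without day 0 replicate 1 Notch1, Atoh1, Jag1 and Hes6 did not pass in this class (0.60, 2.68, -1.39 and 0.30, adjusted p = 0.13, 0.064, 0.10 and 0.52), and without replicate 2 Atoh1 and Jag1 did not (2.76 and -1.46, adjusted p = 0.073 and 0.083). Nrarp and Olfm4 fell in stem III-like cells too, by 2.39 ± 0.46 and 2.29 ± 0.26, and in stem II-like cells by 3.61 ± 0.72 and 1.62 ± 0.29.

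In the other classes with both day 0 libraries, none of the 9 genes tested in goblet-like cells and none of the 7 in early enterocyte-like cells passed, against 5.63% of 9276 and 2.79% of 9609 genes. Hes1 was -0.49 ± 0.32 in the first and -0.68 ± 0.27 in the second (adjusted p = 0.415 and 0.19). Whether these differ from the stem classes was not tested.

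**Figure D4:**
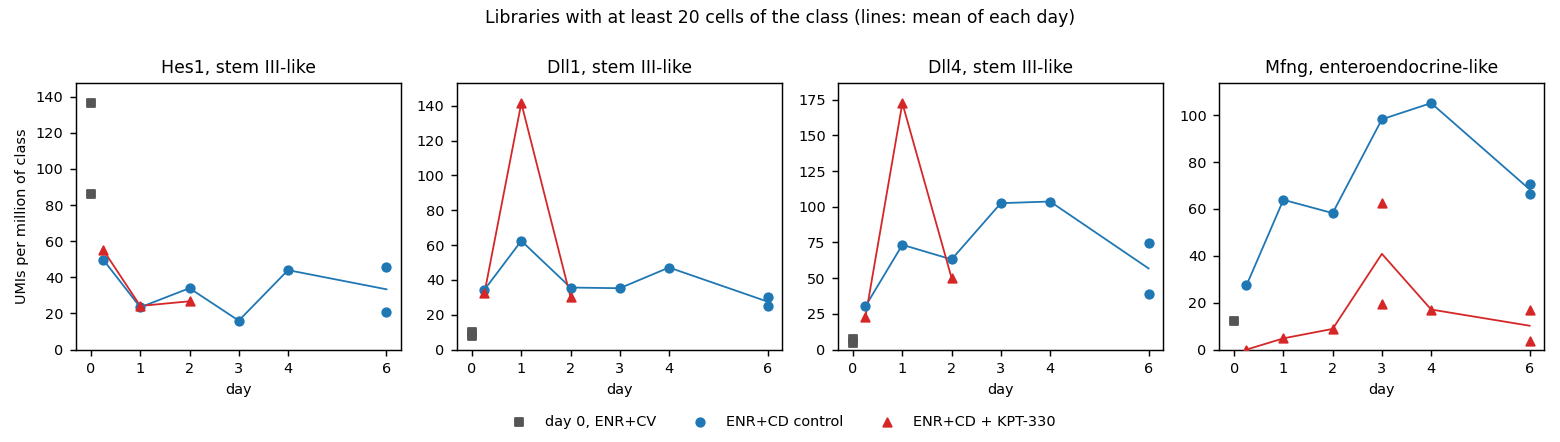
Levels of Hes1, Dll1 and Dll4 in stem III-like cells and of Mfng in enteroendocrine-like cells (vertical axis, CPM of the class) against day (horizontal axis), 1 point per library with at least 20 cells of the class and lines through the mean of each day. The day 0 squares lie above all controls for Hes1 and below all for Dll1 and Dll4, and Mfng lies lower with KPT-330 (0 to 62.4) than in the controls of the same day.

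Under KPT-330, the fall of Mfng was also found within the class that expresses it. Enteroendocrine-like cells of controls measured 27.4 at day 0.25 (4 UMIs), 63.9 at day 1, 58.2 at day 2, 98.3 at day 3, 105 at day 4, and 66.3 and 70.5 at day 6. With KPT-330 they measured 0 UMIs in 22 cells at day 0.25, which allows up to 27.1 CPM. Later levels were 4.80 at day 1 (1 UMI), 8.83 at day 2 (6 UMIs), 19.3 and 62.4 at day 3, and 17.1 at day 4 (6 UMIs). At day 6 they were 3.47 (1 UMI) and 16.9. The 4.80 and the 3.47 lie below the floors of 3 counts in their libraries, 14.4 and 10.4 CPM. Each KPT-330 library lay below the controls of its day, with day 3 replicate 2 nearest to them. The log2 fold change was -2.09 ± 0.25 (adjusted p = 1.8e-05), where 2.83% of 10424 genes passed. Enteroendocrine-like cells were 5.60% of cells with KPT-330 and 16.9% in control at day 2, and 7.54% and 23.6% against 20.4% and 20.4% at day 6. With KPT-330 they were 22 of 936 cells against 24 of 1141 at day 0.25, and 60 of 817 against 99 of 806 at day 1. At day 3 they were 136 of 1126 and 134 of 1369 against 346 of 1474, and at day 4 they were 145 of 1273 against 259 of 1547. The part of these shares in the fall of Mfng over all cells was not tested.

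Fitted alone, an analysis added after the data were seen, the granule gene cluster gave -2.66 ± 0.27 for Mfng (adjusted p = 3.6e-08, where 2.29% of genes passed) and the smaller enteroendocrine-like cluster -1.80 ± 0.80 (adjusted p = 0.64, where 0.458% passed). Neurog3 and Dner fell in the enteroendocrine-like class, by 1.27 ± 0.19 and 0.64 ± 0.18 (adjusted p = 0.0017 and 0.040). In the granule gene cluster and the smaller cluster alone, Neurog3 was -1.78 ± 0.33 and -0.93 ± 0.22 (adjusted p = 0.045 and 0.074), and Dner, at -0.58 ± 0.19 and -0.55 ± 0.36, passed in neither (adjusted p = 0.11 and 0.76). Neurog3 in the class measured 243 to 936 with KPT-330 and 671 to 1666 in controls.

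In Paneth-like cells Dll1 was lower with KPT-330, at 10.6 to 28.1 (median 22.4) against 20.5 to 57.3 in controls (median 32.3), with overlap across days but none within any of the 4 days, and -0.63 ± 0.17 (adjusted p = 0.042, where 3.44% of genes passed). It did not pass without day 3 KPT-330 replicate 1 or 2, day 6 control replicate 2 or day 6 KPT-330 replicate 1 (-0.53, -0.62, -0.60 and -0.57, adjusted p = 0.057 to 0.10), nor with classes set by marker scores of single cells (-0.22, adjusted p = 0.68). Of its 2 clusters, one gave -0.76 ± 0.21 and the other -0.16 ± 0.26, and neither passed alone (adjusted p = 0.063 and 0.91, where 1.39% and 1.66% of genes passed). Those clusters held different shares of KPT-330 cells, 45.1% and 65.5%.

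No other gene of the 10 passed within any class. Of all genes 4.27% passed in stem I-like, 0.674% in stem II-like, 0.341% in stem III-like, 1.7% in early enterocyte-like, 1.83% in enterocyte-like, 2.75% in goblet-like and 3.06% in early Paneth-like cells. Atoh1, higher with KPT-330 in the sums over all cells, measured 0.02 ± 0.12 in Paneth-like, 0.11 ± 0.16 in early Paneth-like and 0.44 ± 0.15 in goblet-like cells on the log2 scale (adjusted p = 0.98, 0.84 and 0.12). Notch2 and Notch1 measured 0.05 ± 0.24 and 0.16 ± 0.16 in stem I-like cells, a class at 0.107% to 9.54% of cells with KPT-330 and 0.351% to 29.2% in controls, and the part of that share in the fall of Notch2 over all cells was not tested.

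The wider list added genes that moved within classes. Neurl1b rose with KPT-330 in early enterocyte-like and enterocyte-like cells, by 1.71 ± 0.24 and 1.22 ± 0.29 (adjusted p = 0.00022 and 0.0265). KPT-330 cells were 55.5% and 35.7% of the 2 clusters joined in the first class, and 70.7% and 98.8% of those in the second. In stem I-like cells Bhlha15 and Ncstn rose by 0.89 ± 0.14 and 0.62 ± 0.13, while Neurog3 and Spdef fell by 2.24 ± 0.44 and 1.71 ± 0.40 (adjusted p between 2.8e-06 and 0.0030). Spdef thus fell in stem I-like cells and rose in the sums over all cells. Its fall rests on 0 to 6 UMIs in each KPT-330 library of the class, against 4 to 48 in controls.

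Over the 17 libraries, the genes whose levels ran most like those of the 4 leading members were found by Pearson's r of log2 CPM among 13455 genes, as a description over libraries that share cell type shares and depth. For Hes1 they were Zfyve19, Pak6 and Slc4a4 (r = 0.926, 0.919 and 0.910), and for Atoh1 Mgat3, Golga1 and Rassf6 (r = 0.968, 0.966 and 0.965). Naip6 and Ptprk were among the nearest to Dll1 (r = 0.926 and 0.888). Notch1 was followed by Gm17541, Gm17322 and Fbxl19 (r = 0.949, 0.935 and 0.933).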

How the data were processed

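Single-cell RNA was captured in nanowells by Seq-Well S3, with 1 library per organoid sample. Per the study's methods, the authors demultiplexed reads with bcl2fastq, aligned them with STAR to mm10 and counted UMIs with the Drop-seq pipeline, and they deposited whole-number UMI counts per gene and cell. Of 26229 barcodes in the deposited tables, the 19877 named in the deposited merged table were kept, of which 28 share a barcode with another library (14 barcodes). Per the same methods, the authors had removed doublets by inspection and with DoubletFinder, and no further caller was run.

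Counts were summed per library and tested with edgeR 4.0.16 in R 4.3.3 (filterByExpr, TMM, quasi-likelihood, Benjamini-Hochberg over all genes tested, threshold 0.05). KPT-330 was compared with control with day as a factor over 15 libraries (8 residual degrees of freedom), and other contrasts came from 1 fit with a mean for each of 13 groups (4 residual degrees of freedom, all from the 4 groups with 2 libraries). A fold change is on the scale of TMM-normalised counts. Cells were clustered with Seurat 5.3.0 and sctransform 0.4.2 on 2973 of 3000 variable genes (9 components, 20 neighbours, resolution 0.45), leaving out the genes described here. Class sums needed 20 cells per library and class. Intervals (95%, exact Poisson) and floors (3 counts) cover counting error only. The fits were tested on simulated counts, with 200 genes changed by 1 on the log2 scale. For KPT-330, 93.5% of these were recovered over all days, 48% at day 6 and 4.5% at day 1. Against day 0, 77.5% were recovered in the mean of the control days. Of the genes called, 6.03%, 8.57%, 10% and 11.93% were wrong, in the same order.

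The 10 genes, the wider list and the cell markers were chosen with earlier results of these data known. Named were all 10 genes, each wider list gene that passed and up to 4 others per role, and the 3 genes most alike, apart from 2 genes that are not reported here. Alternatives were size factors, no count filter, other cells, other classes, at least 50 cells per class, left-out libraries or days, a replicate block, a 2-group fit and DESeq2 1.42.0. Library totals and single clusters were added after seeing the data.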

Additional observations from a re-analysis of the deposited data

How the results depend on the processing

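Each condition had 1 or 2 libraries per day, and some single-day and within-class levels rest on few UMIs. For KPT-330 over all days, 1119 genes were higher and 946 lower without day 3, 1173 were higher without day 4, and library totals (added after seeing the data) gave 452 and 4906. Of the 10 genes, 3 passed without day 3, day 4 or day 6. Without day 0.25, Notch1, Dll1 and Jag1 passed as well, and Dll4 did not. Without day 1 Notch1 passed and Dll4 did not, and without day 2 only the call of Dll4 was lost. Leaving out single libraries gave 1334 to 2041 higher, 1470 to 1871 lower and 4 to 5 of the 10. Against day 0, the 2-group fit gave 102 higher, 133 lower and 3 of the 10 (Atoh1, Dll4 and Hes1), DESeq2 gave 1503 lower, and leaving out libraries gave 1136 to 2138 higher, 1561 to 2642 lower and 5 to 9 of the 10. With no filter on low counts, 41 of the 60 daily tests against day 0 passed (27 with it, 21 to 32 without single libraries), 7 of the 60 for KPT-330 (3 with it, 0 to 4 without single libraries), and 132 genes in the contrast of late and early days (0 with it, 0 to 1 without single libraries). Within classes, 2 tests of the 10 genes passed for KPT-330 (5 with library totals, 1 to 3 without single libraries) and 13 against day 0 (4 to 13 without single libraries). The shares of all genes that passed in the daily fits without the filter and in the alternative fits within classes are not given. These counts of the 10 genes thus cannot be set against them. The causes were not tested.

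The sign turned for Notch1 against day 0 (-0.15 to 0.19 without single libraries, -0.15 without day 0 replicate 1 and -0.02 without day 6 control replicate 2, -0.0029 in the 2-group fit and -0.046 with library totals), for Hes6 with KPT-330 at day 6 (-0.54 to 0.057 without single libraries, 0.057 without KPT-330 replicate 1), and with library totals for Dll4 and Jag1 at day 6 (-0.11 and -0.10) and for Dll4 in the contrast of late and early days (-0.082). None of these values passed the test in any of these fits.

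Replicate numbers gave no pairing that the labels explain, and the correlation of same-numbered deviations ran from 0.014 to 0.37 over 6 pairs of groups. With a replicate block 1950 genes were higher and 1947 lower with KPT-330 and 5 of the 10 genes passed, while within classes 6 tests passed for KPT-330 and 8 against day 0.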
